A study of Rattus norvegicus with 12 samples.

Results

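The genes described here encode the protein subunits of the mitochondrial ribosome, taken as every probe whose platform annotation names a gene Mrpl (large subunit) or Mrps (small subunit) followed by a number. The rule found 61 probes of 22523 on the array. Each stood for a different gene, with 1 probe per gene, and 3 of the symbols were written in lower case in the annotation (mrpl9, mrpl11, mrpl24) and were counted as members. By the subunit in which the protein sits, 40 members belong to the large and 21 to the small subunit, and the 61 genes lie on 16 rat chromosomes. The 12 heart samples came from Sprague-Dawley rats, an outbred stock, with 4 in each of 3 groups, and their total RNA was read on Illumina bead arrays. Control hearts (CN) carried no load at any phase of the heartbeat, systolic overload hearts (SO) were loaded in the contraction phase, and diastolic overload hearts (DO) in the filling phase. The labels give no sex, age, chamber or length of loading, and name no genetic change in any group.

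The mitochondrial ribosome translates the few proteins that the mitochondrial genome itself encodes, all of them core parts of the respiratory chain and the ATP synthase. Its protein subunits are encoded in the nucleus, made in the cytosol and imported, then assembled on ribosomal RNA transcribed inside the organelle. Many of them descend from bacterial ribosomal proteins and others have no bacterial counterpart. The heart is rich in mitochondria, and in humans inherited defects of some of these proteins, MRPL3 and MRPL44 among them, cause hypertrophic cardiomyopathy.

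RefSeq promoter windows in assembly GRCr8, from 250 bases before to 50 bases after the annotated transcription start, were available for 50 of the 61 members. Searches covered both strands for the letters TGCGCA (core letters of NRF1, a factor known for nuclear genes of the mitochondrion), CCGGAAG (a core of the ETS family, which includes GABP) and AAGATGG (a core of YY1). Where an ETS and a YY1 match abut, they can share the letters AAG. The NRF1 letters were present in 13 of 50 members (26%), against 9.42% of all 19005 protein-coding genes with a window and 13.9% of the 6124 with a tested probe. The ETS core stood in 16 members (32%), against 11.6% and 17.9%. The YY1 core stood in 15 members (30%), against 7.98% and 8.59%, and in 11 of them (22% of 50) it lay within the 50 bases after the start, where 2.78% of all genes and 3.82% of genes with a tested probe had it. At least 1 of the 3 motifs was found in 32 members (64%, against 25.3% and 34.1%), and at least 2 of the 3 in 9 members (18%, against 3.5% and 5.96%). The further searches gave CCAAT in 22 members (44%, against 39.8% and 38.8%), TATAAA in 7 (14%, against 14.0% and 8.51%) and CACGTG in 7 (14%, against 7.69% and 9.49%). A match describes these letters and not a bound site.

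The windows below belong to the only members with all 3 motifs (Mrpl36, Mrps18a and Mrps18b, among the 50 with a window) and to Mrpl50, whose transcript varied most between hearts. Capitals mark matches to the NRF1, ETS or YY1 letters on either strand.
Mrpl36: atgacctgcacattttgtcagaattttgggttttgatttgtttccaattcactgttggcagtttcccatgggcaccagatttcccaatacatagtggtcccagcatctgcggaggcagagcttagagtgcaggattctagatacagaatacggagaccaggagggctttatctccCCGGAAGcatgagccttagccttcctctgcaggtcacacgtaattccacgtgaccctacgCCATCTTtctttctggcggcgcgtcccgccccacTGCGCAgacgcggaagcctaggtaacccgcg
Mrps18a: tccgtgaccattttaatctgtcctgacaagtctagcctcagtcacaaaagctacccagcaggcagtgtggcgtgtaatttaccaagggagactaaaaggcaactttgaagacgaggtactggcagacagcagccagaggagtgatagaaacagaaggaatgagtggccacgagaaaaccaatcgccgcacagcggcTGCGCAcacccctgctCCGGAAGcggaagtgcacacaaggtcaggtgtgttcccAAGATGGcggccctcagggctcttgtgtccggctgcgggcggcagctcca
Mrps18b: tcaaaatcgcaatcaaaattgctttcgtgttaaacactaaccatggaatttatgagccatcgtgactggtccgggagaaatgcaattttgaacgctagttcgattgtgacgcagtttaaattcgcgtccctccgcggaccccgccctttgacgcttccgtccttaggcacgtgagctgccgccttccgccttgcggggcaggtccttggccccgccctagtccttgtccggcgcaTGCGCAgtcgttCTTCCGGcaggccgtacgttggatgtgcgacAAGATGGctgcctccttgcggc
Mrpl50: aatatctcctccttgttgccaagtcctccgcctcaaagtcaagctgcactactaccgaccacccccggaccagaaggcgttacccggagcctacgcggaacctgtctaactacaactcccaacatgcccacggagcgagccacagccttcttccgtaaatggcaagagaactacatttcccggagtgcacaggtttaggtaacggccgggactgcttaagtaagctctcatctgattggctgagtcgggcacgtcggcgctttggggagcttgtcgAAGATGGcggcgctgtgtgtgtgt
They lie at chr1:31795072-31795371 on the minus strand for Mrpl36, at chr9:22367331-22367630 on the minus strand for Mrps18a, at chr20:2842756-2843055 on the plus strand for Mrps18b and at chr5:68668038-68668337 on the minus strand for Mrpl50 (GRCr8). In Mrps18b the NRF1 letters began 15 bases before the start, the ETS core 3 bases before it and the YY1 core 28 bases after it. In Mrps18a the same letters began 54, 38 and 0 bases from the start. The Mrpl50 window held a single one of the 3 motifs, a YY1 core that began 26 bases after the start and contains the letters ATG.

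Starts of neighbouring genes also lay close. For 15 of the 50 members (30%), another protein-coding gene started on the opposite strand within 1000 bases upstream, against 7.22% of all genes and 11.5% of genes with a tested probe. One such pair consists of members on both sides, Mrpl46 and Mrps11, with starts 234 bases apart. Mrpl47 shares its start region with Ndufb5, a subunit of respiratory complex I (244 bases), Mrpl18 with the cytosolic chaperonin gene Tcp1 (425 bases), and Mrpl49 with Fau, which encodes a cytosolic ribosomal protein as a fusion (186 bases).

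Across all arrays, between 9249 and 9931 probes were detected (detection p under 0.05), raw median intensities ran from 86.3 to 115.5, and normalized profiles of any 2 arrays correlated at 0.984 to 0.992. Of the 61 members, 59 were detected on all 12 arrays and tested, 39 of the large and 20 of the small subunit. Mrpl30 and Mrps31 were detected on 0 arrays, with raw intensities of 67.9 to 96.1 and 71.0 to 91.0, and were not tested. Cardiomyocyte markers fitted the labelled tissue: all 7 of the 8 fixed markers that had a probe were detected in every heart. Values below are normalized log2 intensities unless another scale is named, differences are on that scale, and a probe is never set against another probe's level.

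The family as a whole was steady between hearts of a group. The median within-group standard deviation was 0.12 for the 59 members (range 0.06 to 0.37), against 0.19 for all 10234 tested probes and 0.16 for the 6669 probes detected at p under 0.01 on every array. It was 0.10 for 59 nuclear subunits of oxidative phosphorylation and 0.09 for 53 cytosolic ribosomal proteins, both lists taken by name after the data had been seen. The steadiest member was Mrps12, with 0.18 between its lowest and highest heart, and the least steady was Mrpl50, with 1.44.

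**Figure D1:**
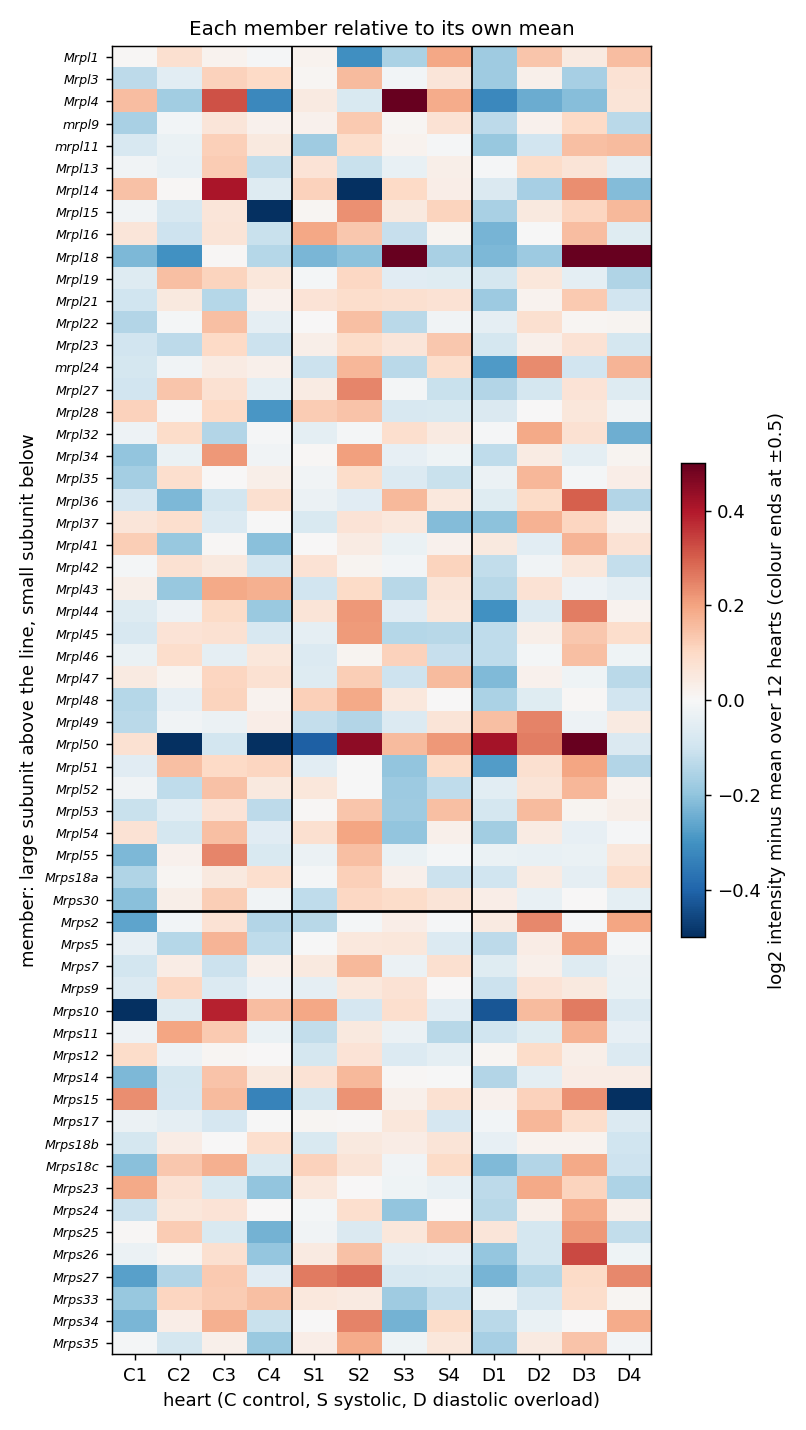
Each cell shows the normalized log2 intensity of 1 member (rows) in 1 heart (columns; C control, S systolic overload, D diastolic overload) minus that member's mean over 12 hearts; the colour ends at 0.5 either way. Columns D1 and C1 are mostly blue and columns C3, S2 and D3 mostly red, while no block of 4 hearts stands apart.

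The first comparison asks which members differ between systolic overload and control hearts. In limma's test, 0 of 59 members passed an adjusted p of 0.05, as did 0% of all tested probes, and the smallest adjusted p of a member was 0.81. At an unadjusted p under 0.05 the count was 0 of 59, against 5.79% of all probes. Means were higher under systolic overload for 42 of 59 members (71.2%, against 51.5% of all probes), but for 3 of 59 (against 18.6% of all probes) when each array was scaled to its median in place of quantile normalization. The median difference was 0.04, against 0.005 for all probes, with a range from -0.19 to 0.49, and under median scaling it was -0.18, beside a shift of -0.17 over all probes. The array medians used for that scaling were taken over all 22523 probes, of which 41.1% to 44.1% were detected per array. They therefore lay among undetected signals. Relative to all probes, the median of the members was -0.01 under median scaling and 0.03 under quantile normalization. Single hearts moved the count of higher means: without control 1 it was 28 of 59 with a median of -0.001, and without systolic overload 2 it was 33. The bounds on change were narrow under quantile normalization, though not more so than in similar lists. For 57 of 59 members (96.6%) the 95% interval stayed inside 1.5-fold in either direction, against 83.7% of all probes, and for 44 (74.6%) inside 1.25-fold, against 31.7%. Among probes detected at p under 0.01 on every array these shares were 86.6% and 42.7%. They were 100% and 79.7% for nuclear subunits of oxidative phosphorylation, and 100% and 88.7% for cytosolic ribosomal proteins.

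By subunit, 26 of 39 large-subunit members (median 0.03) and 16 of 20 small-subunit members (median 0.05) had the higher mean under systolic overload on the quantile-normalized scale. Proteins with a bacterial counterpart gave 25 of 34 and those added in mitochondria 14 of 22, and the 3 relatives of bacterial S18, counted apart, 3 of 3. None of these groups held a member with an unadjusted p under 0.05.

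Mrpl50, a large-subunit protein without a bacterial counterpart, had the largest difference. Its values were 9.40, 8.69, 9.23 and 8.42 in control hearts 1 to 4, 8.91, 9.77, 9.48 and 9.54 in systolic overload hearts 1 to 4, and 9.74, 9.58, 9.86 and 9.25 in diastolic overload hearts 1 to 4. The 2 lowest controls, 2 and 4, lay below every other heart and the 3 groups overlapped. The systolic overload mean was 9.42 ± 0.36 (SD, n = 4), against 8.93 ± 0.46 (SD, n = 4) in the controls, a difference of 0.49 ± 0.23 (SE; adjusted p = 0.81). Leaving out 1 heart at a time moved it between 0.32 (without control 4) and 0.66 (without systolic overload 1).

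Mrpl15, a large-subunit core protein with a bacterial counterpart, read 10.12, 10.06, 10.20 and 9.62 in the controls, 10.15, 10.37, 10.19 and 10.25 under systolic overload and 9.98, 10.19, 10.25 and 10.30 under diastolic overload. Control 4 was the lowest heart and the groups overlapped. The systolic difference was 0.24 ± 0.13 (SE; adjusted p = 0.81), and without control 4 it was 0.11.

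Mrpl21, another core protein of the large subunit, was the 1 member of 59 whose systolic overload and control hearts did not overlap, against 3.5% of all probes. It read 10.45, 10.59, 10.40 and 10.56 in the controls, 10.61, 10.63, 10.62 and 10.61 under systolic overload and 10.36, 10.56, 10.67 and 10.45 under diastolic overload. The 4 systolic overload hearts lay within 0.02 of each other and just above the highest control, and the diastolic overload hearts spanned both. The difference was small, at 0.12 ± 0.09 (SE; adjusted p = 0.89).

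Mrpl23, whose bacterial counterpart lies at the exit of the peptide tunnel, read 10.22, 10.19, 10.42 and 10.21 in the controls, 10.35, 10.41, 10.38 and 10.45 under systolic overload and 10.23, 10.35, 10.39 and 10.23 under diastolic overload. Control 3 stood among the systolic overload hearts, and the systolic difference was 0.14 ± 0.08 (SE; adjusted p = 0.83).

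Mrps35, a small-subunit protein without a bacterial counterpart, read 12.25, 12.17, 12.29 and 12.08 in the controls, 12.30, 12.45, 12.24 and 12.32 under systolic overload and 12.10, 12.31, 12.41 and 12.25 under diastolic overload. All groups overlapped, and systolic overload differed from control by 0.13 ± 0.09 (SE; adjusted p = 0.88).

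Mrps11, a core protein of the small subunit with a bacterial counterpart, was the member with the smallest p among those lower under systolic overload. It read 10.19, 10.42, 10.35 and 10.19 in the controls, 10.10, 10.27, 10.19 and 10.08 under systolic overload and 10.12, 10.16, 10.40 and 10.18 under diastolic overload. Controls 2 and 3 and diastolic overload 3 were the high hearts, and the systolic difference was -0.13 ± 0.09 (SE; adjusted p = 0.89).

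**Figure D2:**
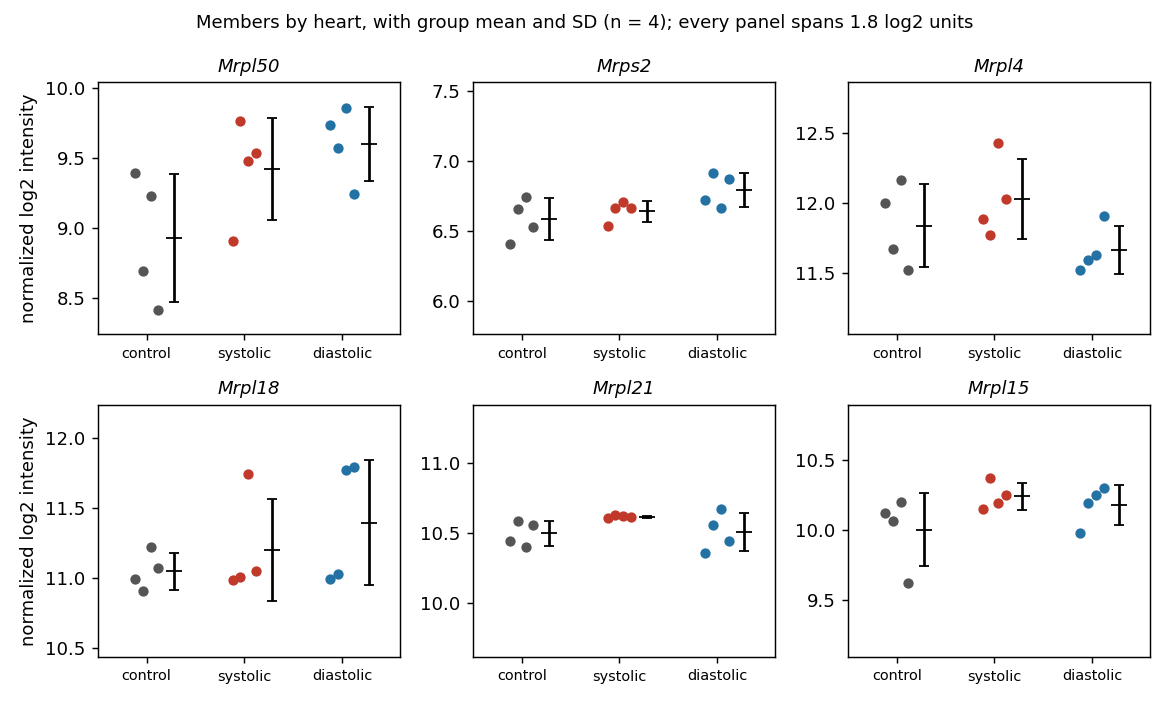
Normalized log2 intensity of Mrpl50, Mrps2, Mrpl4, Mrpl18, Mrpl21 and Mrpl15 in each heart (points, 4 per group) with group mean and SD; every panel spans the same number of log2 units. Mrpl50 shows the widest spread, Mrpl18 has 3 hearts well above the other 9, and the systolic overload hearts of Mrpl21 lie within 0.02 of each other.

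The second comparison sets diastolic overload against control. Again 0 of 59 members passed an adjusted p of 0.05 in limma's test (0% of all probes), with a smallest adjusted p of 0.81. Mrpl50 and Mrps2 had an unadjusted p under 0.05, 2 of 59 against 5.49% of all probes. Means were higher for 33 of 59 members, against 49.2% of all probes, but for 3 of 59 under median scaling, against 17.5% of all probes. The median was 0.006, and -0.22 under median scaling beside -0.18 for all probes. Intervals stayed inside 1.5-fold for 57 members (83.8% of all probes) and inside 1.25-fold for 45 (33.3%). No member had groups without overlap, against 2.78% of all probes. The count of higher means went from 24 of 59 without diastolic overload 3 to 41 without diastolic overload 1, and was 36 without both control 1 and diastolic overload 1.

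Of the 39 large-subunit members 21 were higher (median 0.006), and of the 20 small-subunit members 12 (median 0.007). Bacterial counterparts counted 18 of 34, mitochondrial additions 15 of 22 and the S18 relatives 0 of 3.

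For Mrpl50, with the values given above, 3 of the 4 diastolic overload hearts exceeded every control and heart 4 lay within the control range. Its diastolic mean was 9.60 ± 0.26 (SD, n = 4), 1.59-fold the control mean, a difference of 0.67 ± 0.23 (SE; adjusted p = 0.81) with a 95% interval from 0.17 to 1.17. Without control 4 the difference was 0.50 and without control 1 it was 0.82.

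Mrps2, the counterpart of a bacterial protein of the small-subunit body, read 6.41, 6.66, 6.75 and 6.53 in the controls, 6.53, 6.66, 6.71 and 6.67 under systolic overload and 6.72, 6.92, 6.67 and 6.87 under diastolic overload. Diastolic overload hearts 2 and 4 were above every control, and hearts 1 and 3 were within the control range. The difference was 0.21 ± 0.10 (SE; adjusted p = 0.91).

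Mrpl18, whose bacterial counterpart binds the smallest ribosomal RNA, read 10.99, 10.91, 11.22 and 11.07 in control hearts 1 to 4, 10.99, 11.01, 11.74 and 11.05 in systolic overload hearts 1 to 4, and 10.99, 11.03, 11.77 and 11.79 in diastolic overload hearts 1 to 4. Systolic overload 3 and diastolic overload 3 and 4 lay at 11.74 to 11.79, while the other 9 lay between 10.91 and 11.22. The diastolic difference of 0.35 ± 0.21 (SE; adjusted p = 0.93) thus came from 2 of 4 hearts. With systolic overload 3 left out, the systolic difference went from 0.15 to -0.03.

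Mrpl47, the counterpart of a bacterial tunnel-exit protein, read 10.90, 10.87, 10.96 and 10.94 in the controls, 10.79, 10.98, 10.76 and 11.02 under systolic overload and 10.64, 10.88, 10.84 and 10.72 under diastolic overload. Diastolic overload hearts 1, 3 and 4 were below every control and heart 2 was not. The diastolic difference was -0.15 ± 0.09 (SE; adjusted p = 0.93).

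Mrpl49, a large-subunit protein added in mitochondria, read 10.10, 10.21, 10.20 and 10.26 in the controls, 10.11, 10.08, 10.16 and 10.29 under systolic overload and 10.38, 10.48, 10.20 and 10.27 under diastolic overload. Diastolic overload hearts 1, 2 and 4 were above every control, and the difference was 0.14 ± 0.09 (SE; adjusted p = 0.93).

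Mrpl19, whose bacterial counterpart lies at the face between the subunits, read 9.54, 9.76, 9.72 and 9.66 in the controls, 9.59, 9.71, 9.55 and 9.54 under systolic overload and 9.52, 9.66, 9.56 and 9.45 under diastolic overload. The groups overlapped and diastolic overload differed from control by -0.12 ± 0.08 (SE; adjusted p = 0.95).

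**Figure D3:**
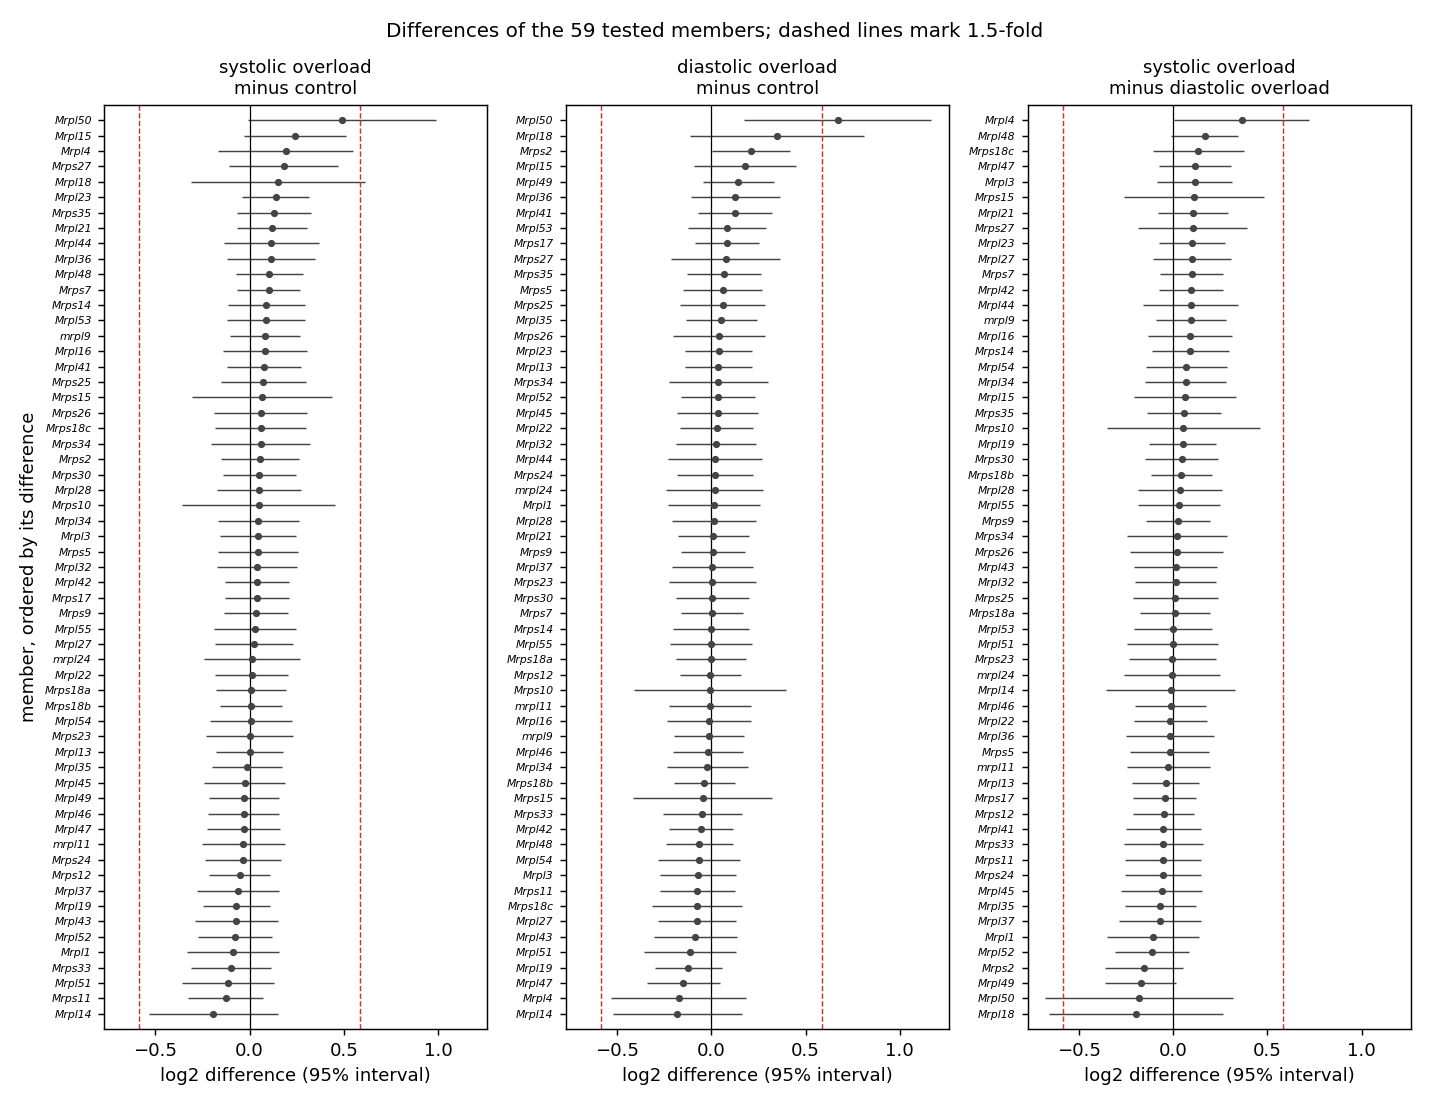
Log2 difference with its 95% interval from limma for each of 59 members, ordered by the difference within each panel: systolic overload minus control, diastolic overload minus control, and systolic minus diastolic overload. Dashed lines mark 1.5-fold, and 57, 57 and 56 intervals lie between them.

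The third comparison sets systolic against diastolic overload, groups that the labels tell apart by the phase of loading. No member passed an adjusted p of 0.05 in limma's test, 0 of 59 and 0% of all probes, with a smallest adjusted p of 0.78. Mrpl4 alone had an unadjusted p under 0.05, 1 of 59 against 6.32% of all probes. Means were higher under systolic overload for 34 of 59, against 52.2% of all probes, with a median of 0.02, and no member had groups without overlap (3.13% of all probes). Intervals stayed inside 1.5-fold for 56 members (83.4%) and inside 1.25-fold for 45 (33.3%). Without diastolic overload 1 the count of higher means was 26, and under median scaling it was 41, against 54.1% of all probes.

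Large-subunit members were higher in 22 of 39 cases and small-subunit members in 12 of 20, with 19 of 34 bacterial counterparts, 12 of 22 mitochondrial additions and 3 of 3 S18 relatives.

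Mrpl4, whose bacterial counterpart lines the peptide exit tunnel, read 12.00, 11.67, 12.16 and 11.52 in control hearts 1 to 4, 11.89, 11.77, 12.43 and 12.03 in systolic overload hearts 1 to 4, and 11.52, 11.60, 11.63 and 11.91 in diastolic overload hearts 1 to 4. Systolic overload 3 was the highest heart, diastolic overload 4 lay among the systolic overload hearts, and the controls spanned most of the range. The systolic minus diastolic difference was 0.36 ± 0.17 (SE; adjusted p = 0.78), and 0.23 without systolic overload 3. Against the shared controls, Mrpl4 differed by 0.19 under systolic and by -0.17 under diastolic overload.

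Mrpl48, a protein of the large subunit's central protuberance, read 11.06, 11.16, 11.31 and 11.21 in the controls, 11.32, 11.39, 11.25 and 11.20 under systolic overload and 11.04, 11.14, 11.20 and 11.10 under diastolic overload. The lowest systolic and the highest diastolic overload heart both read 11.20 and the rest of the 2 groups lay apart, and the difference was 0.17 ± 0.08 (SE; adjusted p = 0.85). The remaining members that the p-value ranking named here were Mrpl49 at -0.17 ± 0.09 (SE; adjusted p = 0.85), Mrps2 at -0.15 ± 0.10 (SE; adjusted p = 0.91), Mrpl47 at 0.12 ± 0.09 (SE; adjusted p = 0.94) and Mrps7 at 0.10 ± 0.08 (SE; adjusted p = 0.94).

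Some members were taken for their place in the ribosome and not for their values. No probe was named here for 2 of these, Mrpl10 and Mrpl12, which form the stalk that recruits translation factors. The protein at the base of that stalk, mrpl11, read 10.89, 10.94, 11.09 and 11.02 in the controls, 10.79, 11.06, 10.99 and 10.96 under systolic overload and 10.78, 10.87, 11.12 and 11.13 under diastolic overload. Its differences from control were -0.03 ± 0.10 (SE; adjusted p = 0.97) under systolic and -0.01 ± 0.10 (SE; adjusted p = 0.999) under diastolic overload.

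At the decoding centre, Mrps12 read 12.01, 11.90, 11.93 and 11.93 in the controls, 11.84, 11.99, 11.85 and 11.87 under systolic overload and 11.93, 12.01, 11.95 and 11.85 under diastolic overload. Its differences were -0.05 ± 0.07 (SE; adjusted p = 0.95) and -0.0046 ± 0.07 (SE; adjusted p = 0.999) for systolic and diastolic overload against control, the 12 hearts lying within 0.18 of each other. Mrps7, in the head of the small subunit, read 12.50, 12.63, 12.49 and 12.62 in the controls, 12.64, 12.75, 12.57 and 12.68 under systolic overload and 12.53, 12.62, 12.53 and 12.57 under diastolic overload. Its systolic difference was 0.10 ± 0.08 (SE; adjusted p = 0.90), and its diastolic difference was 0.002 ± 0.08 (SE; adjusted p = 0.999). Mrps5, near the path by which mRNA enters, read 10.61, 10.50, 10.81 and 10.52 in the controls, 10.64, 10.70, 10.70 and 10.58 under systolic overload and 10.52, 10.68, 10.86 and 10.63 under diastolic overload. It differed from control by 0.04 ± 0.10 (SE; adjusted p = 0.97) under systolic and 0.06 ± 0.10 (SE; adjusted p = 0.99) under diastolic overload.

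On the side where new chains leave, Mrpl44 read 8.03, 8.07, 8.19 and 7.91 in the controls, 8.16, 8.31, 8.04 and 8.15 under systolic overload and 7.79, 8.03, 8.35 and 8.11 under diastolic overload. Diastolic overload 1 was its lowest heart and diastolic overload 3 its highest, and its differences from control were 0.12 ± 0.12 (SE; adjusted p = 0.93) and 0.02 ± 0.12 (SE; adjusted p = 0.998). Mrpl45, which helps hold the ribosome at the inner membrane, read 11.87, 12.02, 12.03 and 11.87 in the controls, 11.91, 12.16, 11.81 and 11.81 under systolic overload and 11.83, 11.98, 12.09 and 12.04 under diastolic overload. It differed by -0.03 ± 0.10 (SE; adjusted p = 0.98) and 0.03 ± 0.10 (SE; adjusted p = 0.996), with overlapping groups.

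Both Mrps18a and Mrps30 carry small-subunit names, yet their proteins sit in the large subunit. Mrps18a is 1 of 3 relatives of the same bacterial protein and read 12.16, 12.32, 12.36 and 12.40 in the controls, 12.30, 12.43, 12.34 and 12.21 under systolic overload and 12.21, 12.36, 12.27 and 12.40 under diastolic overload. Its differences were 0.01 ± 0.09 (SE; adjusted p = 0.99) and -0.0021 ± 0.09 (SE; adjusted p = 0.999). Mrps30 read 11.35, 11.59, 11.68 and 11.54 in the controls, 11.44, 11.66, 11.65 and 11.63 under systolic overload and 11.59, 11.52, 11.56 and 11.51 under diastolic overload, with differences of 0.05 ± 0.09 (SE; adjusted p = 0.97) and 0.01 ± 0.09 (SE; adjusted p = 0.999). Of the other relatives of Mrps18a, Mrps18b differed from control by 0.01 and -0.04, and Mrps18c by 0.06 and -0.08. Both were named after their values were seen, for the promoter windows above.

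Values also shifted from heart to heart within groups. Each member was compared with its own mean over 12 hearts. In the controls 15, 27, 47 and 23 of 59 members lay above their mean in hearts 1 to 4, under systolic overload 32, 46, 25 and 34, and under diastolic overload 8, 38, 45 and 25. Over all 10234 probes the share above the mean stayed between 43.0% (diastolic overload 1) and 52.5%. Diastolic overload 1 had the fewest members above their mean and control 3 the most. The mean deviation over the 59 members was -0.11 in diastolic overload 1, -0.07 in control 1 and -0.06 in control 4, and it was 0.08 in control 3, 0.07 in systolic overload 2 and 0.09 in diastolic overload 3. By group these heart means came to -0.02 ± 0.07 for control, 0.02 ± 0.04 for systolic overload and 0.0006 ± 0.09 for diastolic overload (SD, n = 4 each), and the ranges of the hearts overlapped between all 3 groups. The other 6 hearts lay between -0.02 and 0.03.

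**Figure D4:**
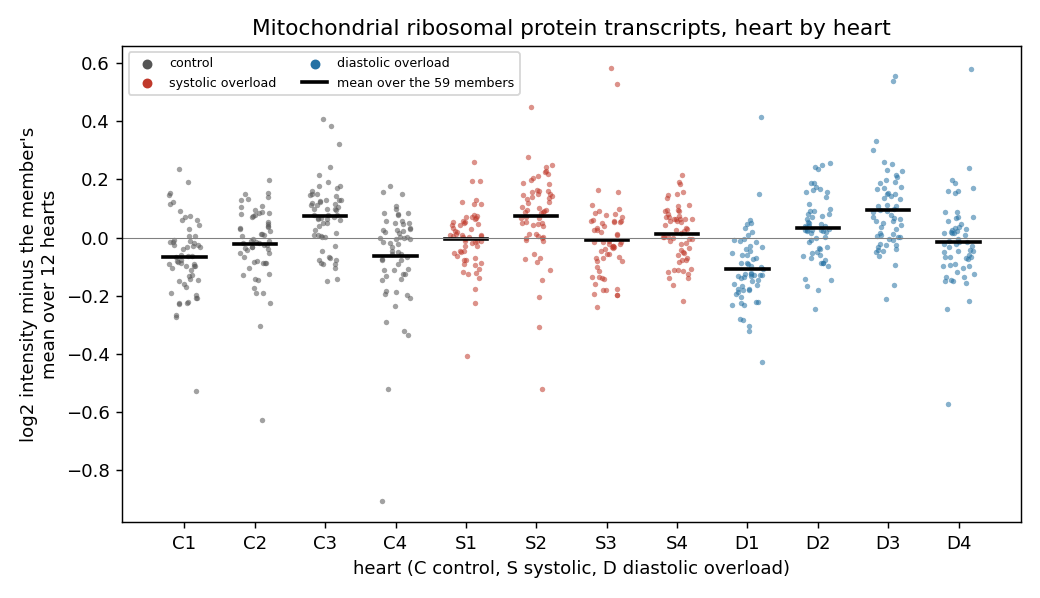
Each point is 1 of the 59 members in 1 heart (C control, S systolic overload, D diastolic overload), as its normalized log2 intensity minus its mean over 12 hearts; the bar is the mean over members. The bars of D1 (-0.11), C1 (-0.07) and C4 (-0.06) are low and those of D3 (0.09), C3 (0.08) and S2 (0.07) high.

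The subunits were also counted apart, heart by heart. Of 39 large-subunit members, the numbers above their own mean in hearts 1 to 4 were 11, 16, 32 and 16 in the controls, 21, 29, 16 and 25 under systolic overload and 4, 26, 27 and 19 under diastolic overload. Of 20 small-subunit members they were 4, 11, 15 and 7 in the controls, 11, 17, 9 and 9 under systolic overload and 4, 12, 18 and 6 under diastolic overload. In control 2 and systolic overload 4 the subunits fell on opposite sides of an even split. Of 59 nuclear subunits of oxidative phosphorylation, the numbers were 27, 34, 39 and 26 in the controls, 24, 38, 25 and 26 under systolic overload and 14, 26, 42 and 37 under diastolic overload. They were low in diastolic overload 1 and high in control 3, systolic overload 2 and diastolic overload 3, as for the members, while in control 1, diastolic overload 2 and diastolic overload 4 they numbered 27, 26 and 37 against 15, 38 and 25 of 59 members. Of 53 cytosolic ribosomal proteins they were 24, 30, 30 and 23 in the controls, 23, 30, 22 and 23 under systolic overload and 37, 19, 22 and 21 under diastolic overload, with the highest count in diastolic overload 1. These counts describe genes that share libraries and were not tested.

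**Figure D5:**
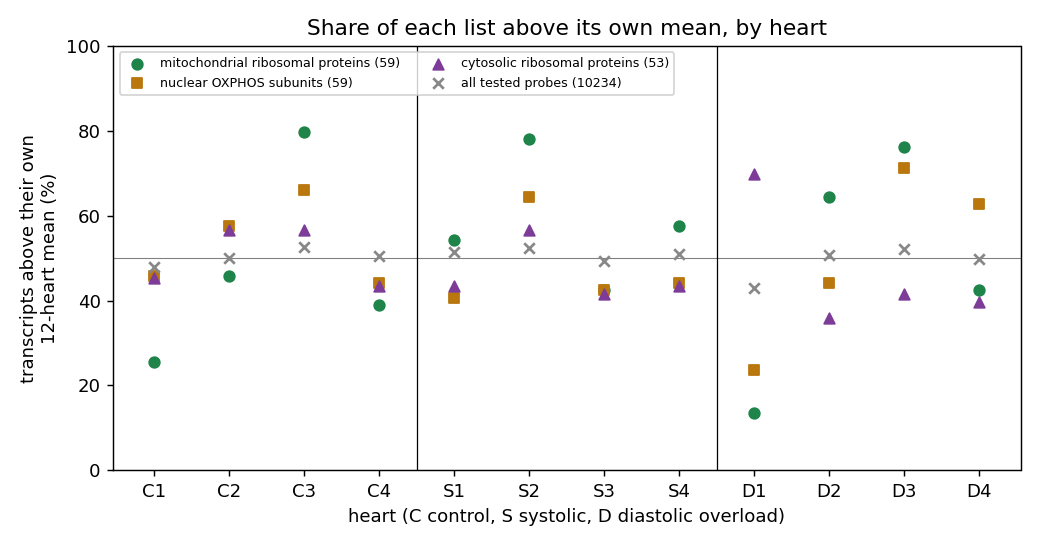
For each heart (C control, S systolic overload, D diastolic overload), the percentage of the genes in each list that lay above their own mean over 12 hearts: 59 mitochondrial ribosomal proteins, 59 nuclear subunits of oxidative phosphorylation, 53 cytosolic ribosomal proteins and all 10234 tested probes. In D1 the mitochondrial ribosomal proteins lie lowest and the cytosolic ones highest.

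Markers of other cells moved with some of these hearts. The mean deviations below are given for the 3 hearts where members were lowest and the 3 where they were highest. For the fibroblast list they were 0.27 in control 1, 0.02 in control 4, 0.91 in diastolic overload 1, -0.39 in control 3, -0.27 in systolic overload 2 and -0.11 in diastolic overload 3. In the same order, 5, 5, 6, 0, 2 and 3 of 6 fibroblast markers lay above their mean. Systolic overload 1 and diastolic overload 4, where the members lay near 0, had fibroblast deviations of -0.30 and -0.29. Control 2, where the members lay at -0.02, had a fibroblast deviation of 0.23, with 6 of 6 markers above their mean. For the macrophage list the values were -0.19 in control 1, -0.01 in control 4, 0.56 in diastolic overload 1, -0.21 in control 3, -0.16 in systolic overload 2 and 0.29 in diastolic overload 3, so that it was high both in diastolic overload 1, where members were low, and in diastolic overload 3, where they were high. The lymphocyte list gave -0.08 in control 1, -0.32 in control 4, 0.40 in diastolic overload 1, 0.03 in control 3, 0.15 in systolic overload 2 and 0.51 in diastolic overload 3. In control 1 the endothelial, erythroid and atrial markers stood high together, with 4 of 4, 3 of 3 and 2 of 2 above their mean. The endothelial list gave 0.74 in control 1, 0.16 in control 4, -0.27 in diastolic overload 1, 0.15 in control 3, -0.01 in systolic overload 2 and -0.19 in diastolic overload 3. The erythroid list gave 0.71 in control 1, 0.73 in control 4, -0.43 in diastolic overload 1, -0.61 in control 3, 0.08 in systolic overload 2 and -0.42 in diastolic overload 3. The atrial list gave 1.52 in control 1, 0.02 in control 4, 0.11 in diastolic overload 1, 0.21 in control 3, -1.52 in systolic overload 2 and -0.86 in diastolic overload 3. Leaving out control 1 took the count of members higher under systolic overload from 42 to 28. Without systolic overload 2 the same count was 33. A part of the markers in either change was not tested. The cardiomyocyte list gave -0.11 in control 1, -0.15 in control 4, -0.06 in diastolic overload 1, -0.0037 in control 3, 0.07 in systolic overload 2 and 0.13 in diastolic overload 3, the adipocyte list 0.32 in control 1, -0.06 in control 4, 0.21 in diastolic overload 1, -0.33 in control 3, -0.33 in systolic overload 2 and 0.02 in diastolic overload 3, and the single smooth muscle marker tested 0.15 in control 1, -0.27 in control 4, 0.43 in diastolic overload 1, 0.27 in control 3, 0.21 in systolic overload 2 and -0.05 in diastolic overload 3.

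Summed intensities in control, systolic overload and diastolic overload hearts ranged over 12965 to 16432, 12826 to 17180 and 12805 to 19680 for the fibroblast list, over 1142 to 1417, 1038 to 1381 and 1210 to 2392 for macrophages and over 111 to 158, 95.3 to 179 and 156 to 298 for lymphocytes. They ranged over 2214 to 4152, 1902 to 2661 and 1881 to 3693 for the endothelial list, over 70.8 to 589, 149 to 168 and 86.1 to 202 for erythroid and over 5805 to 22336, 2024 to 10077 and 2445 to 26997 for atrial markers. The cardiomyocyte list ranged over 90798 to 106931, 102849 to 109153 and 100263 to 109321 and the adipocyte list over 4491 to 8424, 5163 to 6432 and 5158 to 6503, so these ranges of summed intensity overlapped between all groups. A sum on the linear scale weighs each marker by its signal, so these ranges mostly reflect the brightest markers of each list. Mean deviations of the cardiomyocyte list, however, did not overlap between control (-0.15 to -0.0037) and systolic overload hearts (0.03 to 0.07). Under diastolic overload they ran from -0.06 to 0.13. The markers were not uniform. Of 7 cardiomyocyte markers, 3, 3, 4 and 3 lay above their own mean in control hearts 1 to 4. Under systolic overload these counts were 5, 4, 5 and 3, so they overlapped. How often a list of this size separates 2 groups was not tested. The endothelial marker Cdh5, the pericyte marker Rgs5 and the erythroid marker Alas2 were detected on 0 arrays. The part of cell makeup in the pattern between hearts was not tested, and in tissue RNA fewer cells of a type and less RNA per cell cannot be told apart.

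Other genes of mitochondrial translation were described from 6 fixed lists, with limma's test over all probes. Of their 68 tested genes none passed an adjusted p of 0.05. Means were higher in 41 under systolic overload and in 29 under diastolic overload against control, and in 50 under systolic against diastolic overload, where 51.5%, 49.2% and 52.2% of all probes were higher. When each array was scaled to its median these counts were 7, 4 and 52, beside 18.6%, 17.5% and 54.1% of all probes, so the directions against control below hold for quantile normalization. An unadjusted p under 0.05 was found for 4, 4 and 0 of the 68, against 5.79%, 5.49% and 6.32% of all probes. Both counts against control include Spg7, which met the detection filter only through the controls.

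Of 7 further mitoribosome proteins with other names, 5 were tested, and 2 had the higher mean under systolic and 1 under diastolic overload (1 and 0 under median scaling), with 0 unadjusted p under 0.05. Ptcd3, a small-subunit protein with RNA-binding repeats, differed from control by 0.25 ± 0.20 (SE; adjusted p = 0.90) under systolic overload, and systolic from diastolic overload by 0.34 ± 0.20 (SE; adjusted p = 0.88). Gadd45gip1, a large-subunit protein, gave -0.12 ± 0.10 (SE; adjusted p = 0.90) and -0.11 ± 0.10 (SE; adjusted p = 0.97) in the same comparisons. Under diastolic overload Dap3, a GTP-binding small-subunit protein, differed by -0.10 ± 0.08 (SE; adjusted p = 0.95) and the small-subunit protein Aurkaip1 by 0.08 ± 0.13 (SE; adjusted p = 0.99).

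Of 19 mitochondrial translation factors 9 were tested. Against control, 4 were higher under systolic and 2 under diastolic overload (1 and 0 under median scaling), and 7 were higher under systolic than under diastolic overload. The initiation factor gene Mtif2 read 9.53, 9.55, 9.62 and 9.47 in the controls, 9.44, 9.40, 9.46 and 9.47 under systolic overload and 9.32, 9.46, 9.27 and 9.39 under diastolic overload. All 4 diastolic overload hearts were below every control, as for 2.78% of all probes in either direction, a difference of -0.18 ± 0.07 (SE; adjusted p = 0.88), and the systolic difference was -0.10 ± 0.07 (SE; adjusted p = 0.90). The elongation factor Tufm, which brings charged tRNAs to the ribosome, differed by -0.11 ± 0.08 (SE; adjusted p = 0.97) under diastolic overload. The recycling factor Mrrf differed by 0.13 ± 0.10 (SE; adjusted p = 0.89) under systolic overload. Systolic minus diastolic differences were 0.13 ± 0.10 (SE; adjusted p = 0.94) for Mrrf and 0.25 ± 0.14 (SE; adjusted p = 0.86) for Gfm2, which acts with it in recycling.

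Of 17 mitochondrial aminoacyl-tRNA synthetases, which charge the tRNAs, 9 were tested. All 9 had the higher mean under systolic overload, against 51.5% of all probes, from 0.009 to 0.29 with a median of 0.09, but 1 of 9 under median scaling and 7 of 9 without control 1. Under diastolic overload 6 were higher, and 1 under median scaling. None had an unadjusted p under 0.05 in either comparison. Yars2, the tyrosine enzyme, read 9.23, 9.42, 9.45 and 9.33 in the controls, 9.53, 9.52, 9.58 and 9.45 under systolic overload and 9.30, 9.44, 9.34 and 9.35 under diastolic overload. Its systolic overload hearts lay above every diastolic overload heart, as for 3.13% of all probes in either direction, and the lowest of them and the highest control both read 9.45. Its systolic difference was 0.16 ± 0.08 (SE; adjusted p = 0.81) from control and 0.16 ± 0.08 (SE; adjusted p = 0.82) from diastolic overload. Lars2, the leucine enzyme, differed from control by 0.29 ± 0.20 (SE; adjusted p = 0.88) under systolic overload. Under diastolic overload the threonine enzyme Tars2 differed by 0.13 ± 0.09 (SE; adjusted p = 0.97) and the serine enzyme Sars2 by 0.18 ± 0.16 (SE; adjusted p = 0.99). The alanine enzyme Aars2 differed between systolic and diastolic overload by 0.17 ± 0.14 (SE; adjusted p = 0.95). It was detected in 3 of the 4 diastolic overload hearts, which read 5.47, 5.72, 5.73 and 5.11.

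Of 34 assembly factors 20 were tested, with 11 higher under systolic and 10 under diastolic overload (1 and 2 under median scaling). In each comparison 2 of the 20 had an unadjusted p under 0.05, Spg7 with Tfb1m and Spg7 with Mrm3, against 5.79% and 5.49% of all probes. Spg7, a subunit of the inner-membrane protease known in yeast and mouse for maturing the Mrpl32 protein, read 5.42, 5.76, 5.64 and 5.25 in the controls, 4.92, 5.34, 4.88 and 4.73 under systolic overload and 4.98, 5.00, 4.94 and 5.31 under diastolic overload. It was detected in 4 of 4 controls, 1 systolic overload heart and 0 diastolic overload hearts, so no size is given for its systolic difference. Spg7 thus met the filter of 4 detected arrays only through the controls, where its mean was highest. Its p-values and its place in both counts are therefore not read as support for a difference. Counting an undetected array at no less than its lowest detected signal, the control mean of Spg7 was at least 1.18-fold the diastolic overload mean. That bound concerns the means alone, since diastolic overload 4 (5.31) lay above control 4 (5.25). For Mrpl32 itself the differences from control were 0.04 and 0.02. Tfb1m, which methylates the small ribosomal RNA, read 6.38, 6.33, 6.48 and 6.22 in the controls, 6.63, 6.63, 6.54 and 6.72 under systolic overload and 6.46, 6.25, 6.73 and 6.83 under diastolic overload. Every systolic overload heart was above every control, as for 3.5% of all probes in either direction, a difference of 0.28 ± 0.12 (SE; adjusted p = 0.81). Mrm3, an RNA methyltransferase of the large subunit, differed by 0.27 ± 0.11 (SE; adjusted p = 0.88) under diastolic overload. Between systolic and diastolic overload the GTPase gene Noa1 differed by 0.20 ± 0.11 (SE; adjusted p = 0.86) and the methyltransferase gene Mettl15 by 0.16 ± 0.14 (SE; adjusted p = 0.97), the latter detected in 3 hearts of each group.

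Of 21 genes for transcription and RNA handling of the mitochondrial genome 18 were tested, with 13 higher under systolic and 9 under diastolic overload (2 and 1 under median scaling). Against control 2 of the 18 had an unadjusted p under 0.05 under systolic overload (5.79% of all probes) and 0 under diastolic overload. Tfam, which packages mitochondrial DNA and starts its transcription, had the largest difference. Its values were 10.28, 10.71, 10.60 and 10.84 in control hearts 1 to 4, 10.90, 11.03, 11.18 and 11.33 in systolic overload hearts 1 to 4, and 10.46, 11.27, 11.08 and 10.73 in diastolic overload hearts 1 to 4. All 4 systolic overload hearts were above every control, and the diastolic overload hearts spanned both. The systolic difference was 0.50 ± 0.17 (SE; adjusted p = 0.81), and the diastolic one 0.28 ± 0.17 (SE; adjusted p = 0.93). Systolic and diastolic overload differed by 0.22 ± 0.17 (SE; adjusted p = 0.94). Mterf2, of the transcription termination factor family, was likewise above every control in the systolic overload hearts, by 0.29 ± 0.13 (SE; adjusted p = 0.81), so that 2 genes of 18 did not overlap, against 3.5% of all probes. Elac2, which cuts the trailing end from tRNA precursors, differed by 0.14 ± 0.09 (SE; adjusted p = 0.93) under diastolic overload, and Twnk, the mitochondrial DNA helicase, by 0.18 ± 0.11 (SE; adjusted p = 0.90) between systolic and diastolic overload.

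Of 10 regulators of mitochondrial biogenesis 7 were tested, with 2 higher under systolic and 1 under diastolic overload (1 and 0 under median scaling). Myc, a transcription factor of growth genes, read 10.73, 9.74, 9.92 and 9.55 in the controls, 9.74, 9.16, 9.50 and 9.61 under systolic overload and 10.19, 9.83, 9.69 and 10.13 under diastolic overload. Its groups overlapped, and its systolic difference was -0.48 ± 0.22 (SE; adjusted p = 0.81) from control and -0.46 ± 0.22 (SE; adjusted p = 0.85) from diastolic overload. Pprc1, a coactivator related to Ppargc1b, differed by -0.20 ± 0.16 (SE; adjusted p = 0.90) under systolic overload. The coactivator gene Ppargc1b read 6.85, 6.75, 7.05 and 7.05 in the controls, 7.02, 6.99, 6.51 and 6.47 under systolic overload and 6.39, 5.78, 6.10 and 7.05 under diastolic overload. Diastolic overload 1, 2 and 3 were below every control and heart 4 was level with the highest, a difference of -0.59 ± 0.23 (SE; adjusted p = 0.88). The systolic minus diastolic difference of Ppargc1b was 0.42 ± 0.23 (SE; adjusted p = 0.86). Yy1, which encodes the factor whose core was searched for above, differed by -0.22 ± 0.12 under diastolic overload (SE; adjusted p = 0.92).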

How the data were processed

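Per the labels' protocols, Trizol extraction was followed by column clean-up with DNase, a Bioanalyser check and labelling as biotinylated cRNA for Illumina arrays. The authors deposited a table of raw probe intensity on a linear scale, marked as non-normalized per the file headers, and beside each intensity a detection p-value. Their second deposited table holds normalized intensity with column medians of 96.8 to 96.9, and served as an alternative. Those medians alone cannot tell quantile normalization from median scaling. For systolic overload against control, the members' median difference was 0.033 with that table. It was 0.032 with quantile normalization without background correction. For the scanner software, nothing is given in the sources used here. Names came from the platform annotation: 13793 probes had 1 symbol, 0 several and 8730 none.

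Arrays were background corrected and quantile normalized with neqc (limma 3.58.1, R 4.3.3, offset 16). The tests covered the 10234 probes that 4 or more of the 12 arrays detected at p under 0.05. A linear model with group means (lmFit, eBayes) used all 12 arrays, with Benjamini-Hochberg adjustment over all tested probes within each of 3 contrasts. The fit was tested on simulated data. A log2 difference understates changes of dim probes, and the number of arrays limits the precision (median SE 0.13). The labels name no slide, batch or animal, so the p-values reflect the spread among these samples, part of which may be technical.

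Members named with values were the 6 with the smallest p per contrast and 10 fixed for their place in the ribosome, with the 2 smallest p per contrast of each other list. Any member past the adjusted threshold, the one with the widest range and those with an outlying heart were to be named too. The members and lists were chosen with earlier results of these data known. One further gene of the family is not reported here. Alternatives were the deposited normalized table, quantile normalization without background correction, median scaling, an offset of 50, no filter, a stricter filter (detection p under 0.01 on all 12 arrays), array weights, replicate number as a block, a fit to the groups of the contrast alone, and each array left out.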

Additional observations from a re-analysis of the deposited data

Results flagged for a closer look

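In each group of 4 hearts, a member was picked out where 1 heart stood so far from the other 3 that its gap to the nearest, as a share of the group's range, passed Dixon's 95% critical value. This held for 7 of 177 combinations of member and group, and chance alone would give about 8.85. Among large-subunit genes, Mrpl14 read 5.41 in systolic overload 2 (others 5.96 to 6.05). Mrpl18 read 11.74 in systolic overload 3 (others 10.99 to 11.05). Mrpl23 read 10.42 in control 3 (others 10.19 to 10.22). Mrpl55 appeared in both load groups, with 10.72 in systolic overload 2 (others 10.54 to 10.56) and 10.63 in diastolic overload 4 (others all 10.54). Mrps30 read 11.44 in systolic overload 1 (others 11.63 to 11.66). Among small-subunit genes, Mrps33 read 11.36 in control 1 (others 11.66 to 11.70). The cause was not tested in any of these.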

How the results depend on the processing

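No member and no other probe passed an adjusted p of 0.05 under any setting run. The number of members at an unadjusted p under 0.05 (0, 2 and 1 for systolic against control, diastolic against control and systolic against diastolic overload) moved with the processing. For systolic against control it was 1 with the deposited normalized table, quantile normalization without background correction, an offset of 50 or array weights, and 4 with median scaling. For diastolic against control it was 1 with the deposited table, without background correction, with the offset of 50 and with the groups of the contrast alone, and 12 with median scaling. For systolic against diastolic overload it was 3 with the deposited table, without background correction, with the offset of 50 and with no filter, 2 with the stricter filter and 0 with array weights. With single arrays left out these counts ranged from 0 to 3, from 1 to 3 and from 0 to 1. Without both control 1 and diastolic overload 1, an alternative chosen after seeing the data, they were 1, 1 and 0. Median scaling also gave 3, 3 and 41 members with the higher mean (42, 33 and 34 under quantile normalization) and medians of -0.18, -0.22 and 0.04, relative to shifts of all probes of -0.17, -0.18 and 0.01. Leaving out single arrays moved the count of higher means over 28 to 45, 24 to 41 and 26 to 41, and the medians over -0.0013 to 0.067, -0.016 to 0.048 and -0.019 to 0.052. With replicate number as a block the medians stayed at 0.04, 0.006 and 0.02 and the counts were 0, 3 and 1. Deviations of arrays of the same number correlated at -0.27 to 0.33. Arrays of different numbers were not set beside them, so these values cannot decide whether the numbers pair hearts. For the 68 genes of the fixed lists, the higher means (41, 29 and 50) were 7, 4 and 52 with median scaling and ranged over 35 to 44, 26 to 40 and 37 to 52 with single arrays left out. Their unadjusted p under 0.05 (4, 4 and 0) came to 9 and 14 against control with median scaling, to 2 for diastolic overload against control with the groups of the contrast alone, and to 1 for systolic against diastolic overload with the deposited table, without background correction, with the offset of 50, without a filter, with the stricter filter, with the replicate block, with the groups of the contrast alone and without both control 1 and diastolic overload 1. With single arrays left out they ranged over 2 to 7, 3 to 6 and 0 to 3. Over 150 results for named genes, 50 of 1329 values changed sign outside the leave-outs (41 under median scaling), 119 of 1950 within them, and 0 passed the threshold. Taking 1 probe per gene was not run, since each member has 1. The causes of these movements were not tested. With 4 hearts per group, a median SE of 0.10 for members limits what can be seen.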
